A study of Mus musculus with 16 samples.

Results

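The wild type germinal centre B cells of the series were described by themselves, from 6 of its 16 RNA-seq libraries, chosen because their labels give the Crebbp genotype as wild type. Germinal centres form in lymphoid follicles after B cells have met antigen, and their cells divide rapidly, mutate their antibody genes and compete for antigen. The dark zone is where the cells divide and mutate, and the light zone is where they test their receptors and receive T cell help. The transcriptional repressor Bcl6 holds cells in this state, and cells that are not selected die.

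The mice had been immunised with sheep red blood cells, a T-cell dependent antigen, and splenic cells were sorted as B220+, PNA+ and CD95+ after a B cell isolation kit. The study's text gives 12 days between immunisation and collection, and a sample tag gives 10 days. The titles of WT 1, WT 2 and WT 3 lack the letters RH, as do those of the Crebbp knockout libraries. They do not name a cohort, and are called knockout cohort titles here for short. The titles of WT 4, WT 5 and WT 6 hold RH, as do those of the knock-in libraries, and are called knock-in cohort titles. However, the batch tag of WT 4 names the knockout cohort. The labels give no strain, age or Cre driver and do not say whether these wild type mice carried a Cre transgene. They do not say either that the libraries come from separate mice, so the tests see the spread among libraries, which may be technical.

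The libraries held 41407419 (WT 4) to 93040297 (WT 2) counts. Of 48593 genes in the table, 12298 reached a mean of at least 1 CPM (counts scaled to the library size after TMM normalization), which is called detected here, and 25017 had 0 counts in the 6 libraries. Of the detected genes, 10497 were protein coding. A total of 77 genes reached 1000 CPM, and 825 genes held 50 percent of the summed mean CPM. A count of 0 in 1 library allows up to 0.0311 (WT 2) to 0.0760 CPM (WT 4), from counting error only. On the first principal component of log2 CPM, which held 49.1% of the variance over detected genes, WT 4 was at 40.4 and WT 5 at 24.5, and the other libraries lay between -25.1 and -4.45.

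The 5 marker genes of germinal centre B cells were all well above the typical detected gene. CPM served to compare 1 gene between libraries, and TPM, which also divides by annotated exon length, to compare genes. Bcl6 (chromosome 16, 23965052 to 23988852, on the minus strand of GRCm38) had 461, 511, 505, 438, 455 and 497 CPM over WT 1 to WT 6. The 6 values lay within a narrow band, at 477.9 ± 30.1 CPM (SD, n = 6). S1pr2, the receptor that confines B cells to germinal centres, was at 410, 425, 466, 389, 412 and 457 CPM. Fas, which encodes the CD95 used for the sort, was at 103, 109, 105, 103, 85.4 and 98.7 CPM. Both were about as even between libraries as Bcl6.

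The other markers varied more. Mef2b, a transcription factor gene that acts upstream of Bcl6, was at 226, 254, 252, 387, 343 and 327 CPM, with WT 4, WT 5 and WT 6 above WT 1, WT 2 and WT 3. Rgs13, a regulator of chemokine receptor signalling in these cells, was at 215, 266, 233, 262, 148 and 216 CPM, lowest in WT 5. In TPM the order was Mef2b at 638.7 ± 81.2, Rgs13 at 412.7 ± 90.1, Bcl6 at 218.7 ± 31.1, S1pr2 at 163.9 ± 22.6 and Fas at 149.5 ± 22.1 (SD, n = 6). The SD ranges of the last pair overlap. All 5 lay far above the median of 22.1 TPM over detected genes.

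**Figure D1:**
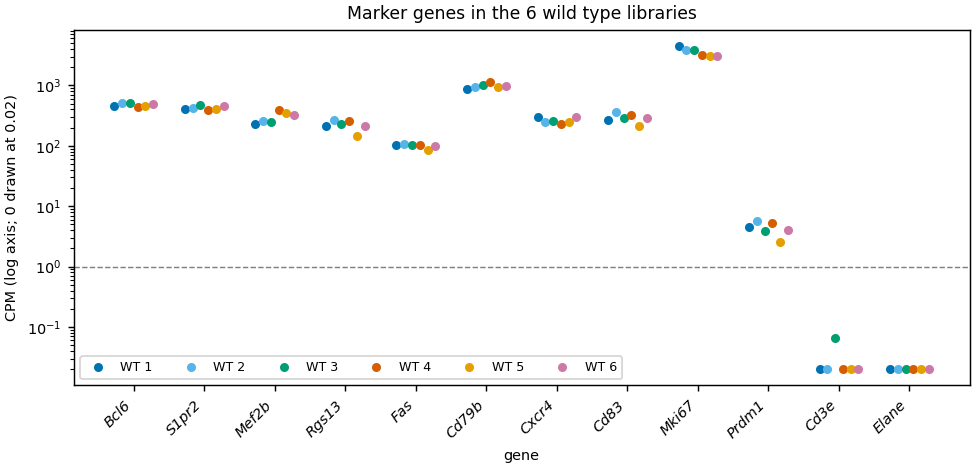
CPM on a log axis for 12 genes, 1 point per library in the order WT 1 to WT 6, with a dashed line at 1 CPM. Bcl6, S1pr2, Mef2b, Rgs13 and Fas sit between 85.4 and 511 CPM, whereas the T cell gene Cd3e and the neutrophil gene Elane are at or near 0.

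Of the 15 genes with the highest mean CPM, 6 were mitochondrially encoded. In descending order the 15 were mt-Co1, mt-Cytb, mt-Nd1, Cd74, Eef1a1, mt-Nd5, Gm42418, Actb, AY036118, Eef2, Mki67, mt-Nd4, Ighm, Igkc and mt-Nd2. The subunit I gene of cytochrome oxidase, mt-Co1, averaged 21118 ± 6617 CPM, and the cytochrome b gene mt-Cytb 9749 ± 3174 CPM (SD, n = 6). Cd74, the invariant chain of MHC class II, averaged 6552 ± 880.1 CPM, and the translation elongation factor genes Eef1a1 and Eef2 averaged 6437 ± 426.8 and 3725 ± 410.3 CPM. The cytoskeletal actin gene Actb averaged 4898 ± 597.4 CPM.

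Mki67, which encodes the proliferation antigen Ki-67, was the 11th gene by mean CPM, at 4427, 3806, 3908, 3182, 3052 and 3043 CPM in WT 1 to WT 6. It was higher in WT 1, WT 2 and WT 3 than in WT 4, WT 5 and WT 6, and its long transcript put it at rank 92 by TPM. Gm42418 and AY036118, which overlap ribosomal RNA sequence, averaged 5199 ± 4105 and 4406 ± 3513 CPM. Their spread was large beside their mean, with WT 3 and WT 4 the high libraries. Of the 100 highest genes by CPM, 57 were also among the 100 highest by TPM.

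Genes of B cell identity were high as a group. All 25 listed pan B cell genes were detected, and 23 reached 100 TPM, with a median of 349.7 TPM. Cd74 led at 11824 TPM, followed by Pou2af1, a coactivator needed for germinal centre formation, at 2466 TPM, and Cd79b, a signalling chain of the B cell receptor, at 2070 TPM. Pou2af1 varied little, at 1989, 2061, 2103, 2027, 2116 and 2052 CPM. The most variable member was the adaptor gene Bank1, at 138 CPM in WT 4 and 216 to 245 CPM in the other libraries, which did not pass the test of variation described further on (edgeR goodness-of-fit, adjusted p = 0.786).

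The 24 measured genes of the wider germinal centre programme were all detected, with a median of 180.3 TPM. Neil1, a base excision repair glycosylase, was the highest at 935.6 TPM, and Tnfrsf13c, the receptor for the survival factor BAFF, was at 742.6 TPM. Klhl6, an adaptor of ubiquitin ligases required for germinal centre B cells, was at 648.3 TPM. Bach2, a repressor that restrains plasma cell differentiation, varied most in this list, at 692, 689, 760, 327, 474 and 642 CPM. WT 4 and WT 5 were the low libraries, and the gene did not pass the test (adjusted p = 0.363).

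Hypermutation depends on DNA repair enzymes. Of 22 listed genes of hypermutation and repair, all were detected and the median was 61.7 TPM. The strand break sensor gene Parp1 was highest at 430.5 TPM, Samhd1, a dNTP hydrolase, was at 257.1 TPM, and Rpa1, which encodes a single-strand DNA binding protein, was at 235.7 TPM. The uracil glycosylase genes were lower. Ung, chosen after its values were seen, was at 28.2 TPM, and Smug1 was the lowest of the list at 4.36 TPM.

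Both zones were represented. All 12 dark zone genes were detected, with a median of 92.1 TPM, and all 27 light zone genes, with a median of 40.6 TPM. In the dark zone list, Cxcr4, the chemokine receptor that draws cells to that zone, was at 448.4 TPM, the mitotic cyclin gene Ccnb2 at 377.8 TPM and Polh, an error-prone polymerase of hypermutation, at 120 TPM. In the light zone list, Cd83, a surface glycoprotein of activated B cells, led at 345.1 TPM, followed by Il21r, the receptor for a T follicular helper cytokine, at 234.2 TPM, and Cd86, a costimulatory ligand, at 118.5 TPM. Cxcr4 was at 298, 252, 259, 233, 244 and 297 CPM and Cd83 at 271, 360, 284, 320, 210 and 293 CPM in WT 1 to WT 6. A bulk level cannot tell the number of cells in a zone from the RNA per cell.

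The summed level of the zone lists differed by a ratio of at most 1.30 between libraries. The dark zone sum ran from 1820 CPM in WT 2 to 2008 CPM in WT 6, and the light zone sum from 1588 CPM in WT 5 to 2057 CPM in WT 4. Among the 27 light zone genes, 11 were highest in WT 4 and 7 in WT 6, beside 26.0% and 11.8% of all detected genes. The 1 light zone gene that passed the test was Ccnd2, a D-type cyclin, at 34.2 CPM in WT 4 and 13.1 to 17.5 CPM in the other libraries (adjusted p = 0.0326). Ccnd2 was not called without WT 4 or without WT 3.

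**Figure D2:**
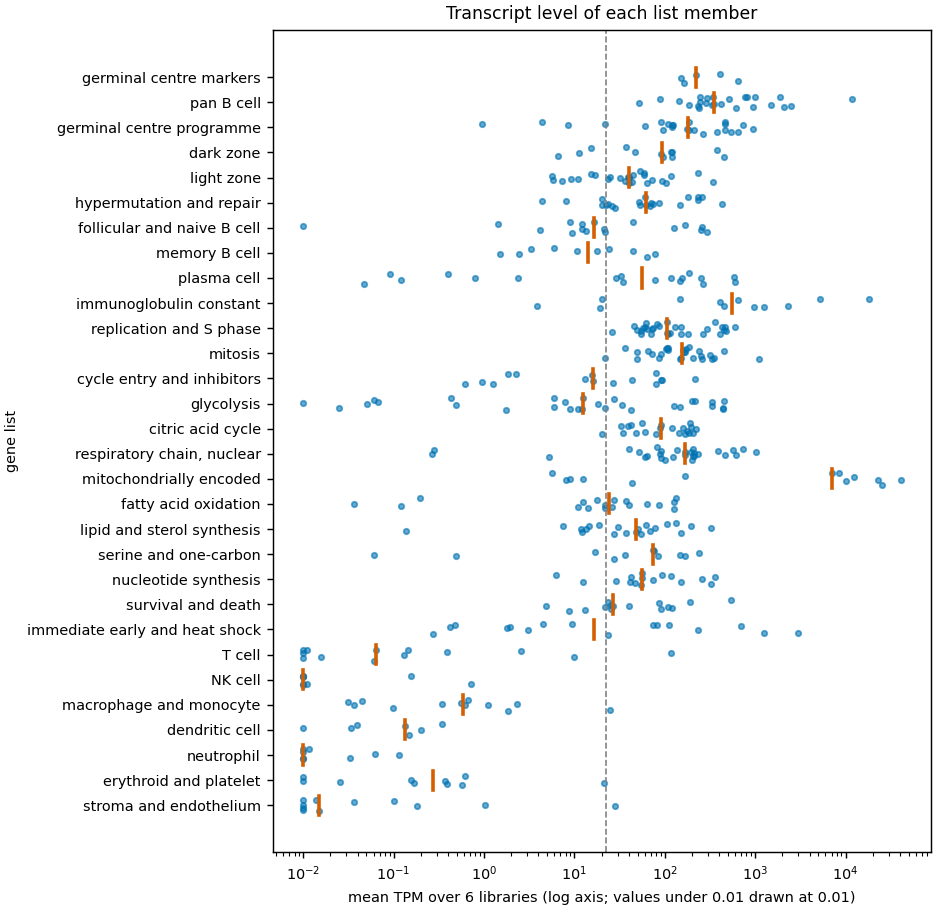
Mean TPM over the 6 libraries on a log axis for each member of 30 gene lists, with an orange bar at the median of each list and a dashed line at 22.1 TPM, the median over detected genes. Pan B cell, germinal centre, replication and mitosis lists sit right of the dashed line, and markers of other cell types sit at its left apart from a few members.

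Genes of replication and mitosis were high. All 31 genes of replication and S phase were detected, with a median of 105.9 TPM, and all 28 genes of mitosis, with a median of 155.7 TPM. In the replication list, Pcna, the sliding clamp of DNA polymerase, was at 603.4 TPM, and the helicase subunit genes Mcm6 and Mcm5 were at 475.2 and 464.8 TPM. In the mitosis list, Mki67 was at 1094 TPM, Top2a, which untangles chromosomes, at 450 TPM, and Cdc20, the activator of the anaphase-promoting complex, at 349 TPM. The most variable replication gene, the licensing factor Cdt1, was at 69.1, 70.8, 70.6, 96.9, 104 and 94.7 CPM and did not pass the test (adjusted p = 0.806).

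Of 15 genes of cycle entry and inhibition, 12 were detected, with a median of 15.9 TPM. Cdk4, the kinase partner of D cyclins, was at 216.8 TPM, Rbl1, a relative of the retinoblastoma protein, at 92.6 TPM, and Ccng1, a cyclin gene that p53 activates, at 90.0 TPM. The 3 genes under 1 CPM were inhibitors, with Cdkn2b at 0.280 CPM, Cdkn1c at 0.840 CPM and Cdkn2a at 0.859 CPM on average. Cdkn1a, the p53 target p21, averaged 2.17 ± 0.317 CPM, and Ccnd1 averaged 1.5 ± 0.485 CPM, against 346.3 ± 49.4 CPM for Ccnd3, the D cyclin of germinal centre B cells (SD, n = 6). These 3 genes were chosen after their values were seen. Not all inhibitors were low, with Rbl1 at 179.5 ± 29.2 CPM and Cdkn1b, another inhibitor of cyclin-dependent kinases, at 23.4 ± 4.32 CPM (SD, n = 6).

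Mki67 was the mitosis gene of highest level, and Cdc20 and Ube2c were the mitosis genes whose variation passed the test. The promoters of Mki67, Cdc20 and Ube2c are shown because mitotic genes share CCAAT boxes and the cell cycle homology element TTTGAA. The 250 bases before the RefSeq start on GRCm38.p6 are chr7:135716380-135716629 (minus strand), chr4:118437344-118437593 (minus strand) and chr2:164769679-164769928 (plus strand). Capitals mark CCAAT or TTTGAA on either strand, so ATTGG and TTCAAA are marked too.
Mki67: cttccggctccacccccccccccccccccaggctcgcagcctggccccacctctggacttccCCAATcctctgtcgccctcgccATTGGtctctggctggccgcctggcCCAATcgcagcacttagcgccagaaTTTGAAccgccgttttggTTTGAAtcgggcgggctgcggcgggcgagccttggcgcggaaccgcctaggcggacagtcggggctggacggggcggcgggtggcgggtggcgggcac
Cdc20: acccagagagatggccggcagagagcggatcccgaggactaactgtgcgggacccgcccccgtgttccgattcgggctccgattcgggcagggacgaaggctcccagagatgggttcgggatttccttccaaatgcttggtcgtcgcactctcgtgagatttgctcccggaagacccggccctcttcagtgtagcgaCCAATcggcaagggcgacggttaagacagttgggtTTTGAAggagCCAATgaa
Ube2c: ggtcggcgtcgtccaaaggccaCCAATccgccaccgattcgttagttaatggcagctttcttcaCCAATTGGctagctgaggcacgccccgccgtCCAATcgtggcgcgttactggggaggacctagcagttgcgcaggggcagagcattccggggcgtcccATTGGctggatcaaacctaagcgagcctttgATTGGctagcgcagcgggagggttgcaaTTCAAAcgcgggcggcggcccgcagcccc
The 3 promoters hold 3, 2 and 6 CCAAT matches and 2, 1 and 1 TTTGAA matches. Neighbouring matches on opposite strands overlap in Ube2c.

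CCAAT was common in the promoters of the mitosis list. Of its 28 genes, 22 had a RefSeq promoter, and 19 of these, 86.4%, held CCAAT on either strand, against 34.5% of all 27025 promoters and 37.6% of the 8653 promoters of detected genes. TTTGAA was in 31.8% of the 22 promoters, against 16.3% of all promoters and 10.8% of those of detected genes. Of the 26 replication genes with a promoter, 61.5% held CCAAT, 11.5% held TTTGAA and 23.1% held the E2F words TTTCCCGC or TTTGGCGC, which 1.35% of all promoters and 2.74% of those of detected genes held. A match of letters is a description of these windows and not of binding.

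Metabolic genes covered glycolysis, respiration and biosynthesis, with single isoforms often dominant. Of 29 glycolysis genes, 22 were detected, with a median of 12.5 TPM. Ldha, the lactate dehydrogenase A chain, was at 457.7 TPM, the aldolase gene Aldoa at 441.1 TPM and the pyruvate kinase gene Pkm at 440.2 TPM. Their alternative isoforms were near or at 0. Ldhb averaged 0.0144 CPM and Pklr, the liver and red cell pyruvate kinase, 0.0508 CPM, and the insulin-responsive glucose transporter gene Slc2a4 had 0 counts in the 6 libraries.

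Respiratory genes were higher as a list. Of 29 nuclear respiratory chain genes, 26 were detected, with a median of 167.4 TPM, and the ATP synthase genes Atp5a1 and Atp5b were at 1015 and 736.7 TPM. Cox6a1 was at 611.5 TPM, whereas the muscle form Cox6a2 averaged 0.0618 CPM and Cox4i2 0.0707 CPM. All 21 citric acid cycle genes were detected, with a median of 89.8 TPM and the succinate dehydrogenase subunit gene Sdha highest at 221.6 TPM.

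Of 13 mitochondrially encoded genes, 12 were detected, but their levels were split. mt-Co1 was at 40781 TPM, mt-Cytb at 25401 TPM and mt-Nd1 at 23075 TPM. Genes transcribed from the same genome were close to 0. mt-Atp8 averaged 0.391 CPM, mt-Co2 1.85 CPM, mt-Co3 2.35 CPM and mt-Atp6 2.89 CPM, the last 3 named after their values were seen. Nuclear near-copies of mitochondrial genes can take or divide reads, so these low values are uncertain as levels of the transcripts.

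Fatty acid oxidation had a lower median than the nuclear respiratory chain and citric acid cycle lists, but a higher one than glycolysis (12.5 TPM). A list median counts undetected isoforms too, so it depends on the members listed. Glycolysis had 9 of 29 genes at 100 TPM or more and a highest member at 457.7 TPM. Fatty acid oxidation had 3 of 18 and a highest member at 132.3 TPM. Of 18 genes, 15 were detected, with a median of 23.8 TPM. The electron transfer flavoprotein genes Etfa and Etfb were at 132.3 and 126.8 TPM and the acyl-CoA dehydrogenase gene Acadl at 127.1 TPM. The 3 genes under 1 CPM were Ppara, a nuclear receptor that activates this pathway, at 0.0438 CPM, Ppargc1a, a coactivator of mitochondrial genes, at 0.251 CPM, and Cpt1c at 0.358 CPM.

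Of 21 genes of lipid and sterol synthesis, 20 were detected, with a median of 47.9 TPM. The desaturase gene Scd1 was at 326.3 TPM and Srebf2, the sterol-sensing transcription factor, at 194 TPM, whereas Acacb averaged 0.452 CPM. All 16 nucleotide synthesis genes were detected, with the nucleoside diphosphate kinase gene Nme2 at 356 TPM, the purine salvage gene Hprt at 322.2 TPM and the purine synthesis gene Paics at 261.1 TPM. Of 11 serine and one-carbon genes, 10 were detected, led by the mitochondrial enzyme gene Shmt2 at 238.9 TPM, and Aldh1l1 averaged 0.0881 CPM.

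The survival genes were led by 1 member of the Bcl2 family. All 15 genes of survival and death were detected, with a median of 26.8 TPM. Mcl1, the antiapoptotic protein on which germinal centre B cells depend, was at 603, 669, 652, 540, 551 and 632 CPM, or 546.6 TPM. The proapoptotic genes Bak1 and Bid were at 190.8 and 120.3 TPM. Bcl2, which germinal centre B cells are known to repress, was at 1.42 TPM and was chosen after its values were seen.

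Markers of differentiated B cells were partly present. Of 18 plasma cell genes, 14 were detected, with a median of 56.6 TPM. The immunoglobulin assembly genes Mzb1 and Jchain were at 603.5 and 576.7 TPM and the protein disulfide isomerase gene Txndc5 at 264.9 TPM. Ly6c2, Cd28 and Fkbp11 averaged 0.0421, 0.190 and 0.108 CPM. Prdm1, the regulator that drives plasma cell differentiation, was at 4.45, 5.71, 3.87, 5.22, 2.51 and 3.97 CPM, and Sdc1, which encodes the plasma cell surface marker CD138, averaged 1.02 ± 0.534 CPM (SD, n = 6). Prdm1 and Sdc1 were chosen after their values were seen.

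All 10 memory B cell genes were detected, with a median of 14.3 TPM and none at 100 TPM, led by the intermediate filament gene Vim at 78.8 TPM. Of 17 follicular and naive B cell genes, 16 were detected, with a median of 16.7 TPM. The highest were the inhibitory receptor gene Btla at 289.5 TPM, the low-affinity IgE receptor gene Fcer2a at 255.4 TPM and the follicle homing receptor gene Cxcr5 at 250.7 TPM. Zbtb16 had 0 counts in the 6 libraries.

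Markers of other cell types were low. Of 8 neutrophil markers and 8 NK cell markers, 0 reached a mean of 1 CPM, and 4 of each had 0 counts in the 6 libraries, Elane, Ltf and Retnlg among the neutrophil and Gzma, Gzmb and Klrd1 among the NK cell markers. The summed level of the neutrophil list ran from 0 to 0.122 CPM and that of the NK cell list from 0.253 CPM in WT 4 to 1.54 CPM in WT 5. None of the 7 dendritic cell markers reached a mean of 1 CPM, and Siglech had 0 counts. Of 12 macrophage and monocyte markers, 3 did, with Cd68 at 10.3 CPM and Csf1r at 4.43 CPM on average, and the sum of the list ran from 14 CPM in WT 1 to 24.0 CPM in WT 6.

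Of 13 T cell markers, 3 were detected, namely Lck at 113 CPM, Cd247 at 17.0 CPM and Lat at 2.35 CPM on average, while Cd3e averaged 0.0109 CPM and Themis had 0 counts. The sum of the list, 117 CPM in WT 3 to 158 CPM in WT 4, was mostly Lck. Of 10 erythroid and platelet markers, 1 was detected, Hbb-bt at 4.90 CPM. Of 11 stroma and endothelium markers, Pecam1 at 57.5 CPM and Cdh5 at 1.41 CPM were detected, and Col3a1 had 0 counts.

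Immunoglobulin genes took a similar share of each library, and the isotypes within it varied. Immunoglobulin and T cell receptor genes took 1.14% ± 0.0545 of counts (SD, n = 6). Among heavy chain constant counts, Ighm held 49.9%, 56.3%, 50.4%, 49.0%, 53.4% and 48.6% in WT 1 to WT 6. Ighg1, the main switched isotype, held 34.3%, 31.4%, 35.1%, 25.6%, 27.2% and 29.5%. The share of Ighg1 was lower in WT 4, WT 5 and WT 6 than in WT 1, WT 2 and WT 3. Ighg3 held 8.62% ± 2.41 and Ighg2b 6.4% ± 2.69, and Ighe held 0.174% ± 0.105 (SD, n = 6). Igkc held 88.4% ± 1.05 of light chain constant counts.

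The next question was which genes varied most between libraries of 1 genotype. A goodness-of-fit test (edgeR) asked of each gene whether its counts in the 6 libraries spread beyond the negative binomial trend of genes of like abundance, with p-values adjusted by Benjamini-Hochberg over the 15586 genes tested. It called 358 genes, or 2.30% of those tested, more variable than the trend at an adjusted p under 0.05, and the median SD of log2 CPM over tested genes was 0.25. Of the calls, 228 were protein coding and 19 were immunoglobulin variable segments. Among the lists, 0 of 25 pan B cell genes, 0 of 24 germinal centre programme genes, 0 of 12 dark zone genes, 0 of 31 replication genes and 0 of 5 markers were called. At a share of 2.30%, lists of these sizes would hold few or no calls, so the lack of calls does not set them apart. Lists with a larger share of calls included immunoglobulin constant (4 of 12 tested), mitochondrially encoded (4 of 13), memory B cell (3 of 10) and sex-linked genes (5 of 5). The spread of mt-Co1, with 15033 CPM in WT 1 and 29495 CPM in WT 4, was not called (adjusted p = 1).

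**Figure D3:**
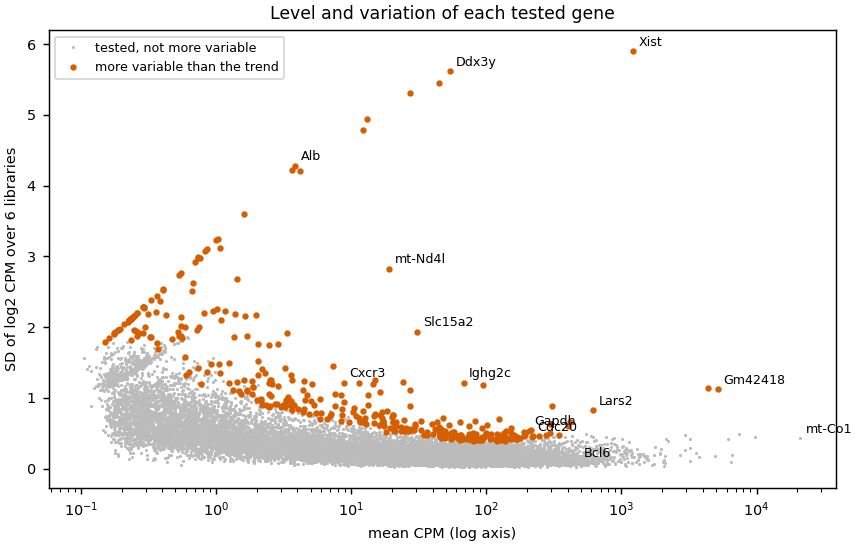
SD of log2 CPM over the 6 libraries against mean CPM on a log axis for the 15586 tested genes, with the 358 genes more variable than the trend in orange. Xist, the Y-linked Ddx3y and the liver gene Alb lie far above genes of like level, and Bcl6 lies within the grey band.

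The largest spread came from sex-linked genes. Xist, the RNA that silences an X chromosome in female cells, was at 3025, 2381 and 1858 CPM in WT 1, WT 3 and WT 6 and at 1.27, 0.786 and 2.55 CPM in WT 2, WT 4 and WT 5. The Y-linked genes Ddx3y, Eif2s3y, Kdm5d and Uty had the opposite pattern, with Ddx3y at 137, 89.1 and 98.1 CPM in WT 2, WT 4 and WT 5 and at 0.122, 0 and 0.119 CPM in WT 1, WT 3 and WT 6. All 5 were called, with adjusted p from 4.23e-260 for Ddx3y to 3.34e-102 for Uty. Kdm6a, an X-linked demethylase gene known to escape X inactivation, was at 186, 180 and 156 CPM in the libraries with high Xist and at 92.6, 61.0 and 71.6 CPM in the others (adjusted p = 1.60e-09). It was 1 of 4 X-linked genes chosen after their values were seen, and the other 3, Kdm5c, Eif2s3x and Ddx3x, did not pass (adjusted p = 0.0879, 0.0744 and 1).

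Tbx21, Cxcr3 and the isotype gene Ighg2c were highest in WT 5 and next highest in WT 4. Tbx21, which encodes the transcription factor T-bet, was at 9.44, 7.66, 8.90, 20.3, 30.5 and 13.8 CPM in WT 1 to WT 6 (adjusted p = 4.09e-05). Cxcr3, a chemokine receptor gene that T-bet is known to activate, was at 4.28, 2.69, 4.09, 8.87, 28.3 and 4.40 CPM (adjusted p = 6.79e-14). Ighg2c, an isotype to which T-bet is known to promote switching, was at 19.7, 38.7, 24.4, 107, 170 and 46.7 CPM (adjusted p = 1.21e-35). Whether the 3 genes vary together was not tested.

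Of the other isotypes, Ighe was likewise highest in WT 5 at 22.0 CPM and next highest in WT 4 at 13.3 CPM. Igha was highest in WT 5 at 31.9 CPM and next highest in WT 6 at 23.9 CPM, whereas Ighg2b was highest in WT 4 at 694 CPM and lowest in WT 5 at 219 CPM. All 3 were called (adjusted p = 0.0015, 0.000807 and 0.000867), and they were named after their values were seen, as were the memory B cell gene calls besides Tbx21, which were Zbtb32 and Nt5e. Without WT 5, Cxcr3, Tbx21, Ighe, Igha, Zbtb32 and Nt5e were no longer called, and Zbtb32 and Nt5e were also lost without WT 3, Zbtb32 without WT 2 and Nt5e without WT 6. Ighg2c and Ighg2b stayed called whichever library was left out. Neither Cxcr3 nor Tbx21 was called within the 3 libraries of the knockout cohort titles, nor Tbx21 within the 3 of the knock-in cohort titles.

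Most detected genes of the follicular and naive B cell list were highest in WT 6. Ccr7, a chemokine receptor of naive B cells, was at 1.02, 1.27, 2.07, 2.74, 3.64 and 5.65 CPM (adjusted p = 0.0239), and its call was lost without WT 1, WT 2 or WT 6. Of the 16 detected genes of the follicular and naive list, 10 were highest in WT 6 and 0 in WT 4, beside 11.8% and 26.0% of all detected genes. Ighd was at 84.6, 96.9, 86.9, 84.8, 115 and 163 CPM and did not pass (adjusted p = 0.0709). The summed level of the list did not follow this order, with 1815 CPM in WT 2, 1812 CPM in WT 6 and 1344 CPM in WT 4. The macrophage and stroma lists also had their highest sums in WT 6, at 24.0 and 74.0 CPM, and their part in this order was not tested.

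**Figure D4:**
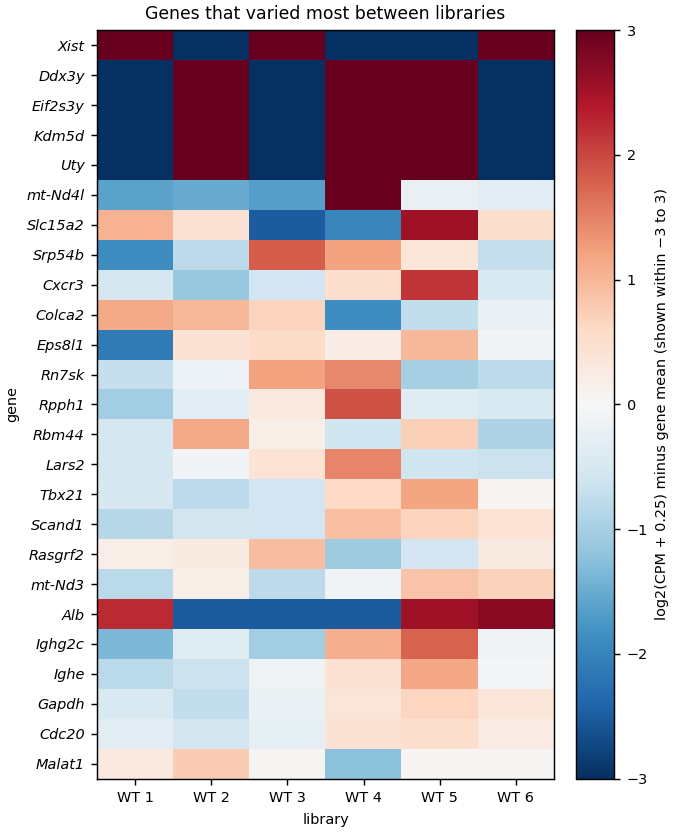
Log2(CPM + 0.25) minus the mean of each gene, shown within -3 to 3, for 19 of the 20 genes of highest SD and 6 further genes (rows) in the 6 libraries (columns). The sex-linked rows separate WT 1, WT 3 and WT 6 from WT 2, WT 4 and WT 5, and the Alb row separates WT 1, WT 5 and WT 6 from WT 2, WT 3 and WT 4.

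The glycolysis and respiratory chain lists had their highest sums in WT 4 and WT 5. The summed glycolysis list was at 3236, 2976, 3224, 5027, 4624 and 3664 CPM in WT 1 to WT 6. The summed nuclear respiratory chain list was at 4294, 4033, 4353, 5887, 5460 and 4744 CPM, and 21 of its 26 detected genes were highest in WT 4, beside 26.0% of all detected genes. The citric acid cycle, serine and one-carbon, and nucleotide synthesis lists also had their highest sums in WT 4 and WT 5. In WT 4 and WT 5 the citric acid cycle sum was 3156 and 3167 CPM, against 2659 to 2944 CPM in the other libraries. The serine and one-carbon sum was 1288 and 1141 CPM there, against 829 to 1006 CPM. The nucleotide synthesis sum was 2195 and 1932 CPM there, against 1586 to 1672 CPM. The lipid synthesis and fatty acid oxidation lists had other orders. Lipid and sterol synthesis was lowest in WT 4 at 2391 CPM and highest in WT 5 at 3062 CPM, and fatty acid oxidation ran from 837 CPM in WT 2 to 925 CPM in WT 3. Gapdh, at 143, 118, 171, 251, 305 and 252 CPM, passed the test (adjusted p = 0.000823), as did Pgam1 (adjusted p = 0.0456) and the ATP synthase gene Atp5d, at 89.7, 94.2, 106, 187, 153 and 132 CPM (adjusted p = 0.0176). Gapdh was not called without WT 2, Atp5d without WT 1, WT 2, WT 4 or WT 6, and Pgam1 when any 1 library other than WT 4 was left out. Gapdh has many near-identical pseudogenes, so its level is uncertain. The lists of zone, replication and mitosis genes differed by less, with ratios of the highest to the lowest library of 1.10 to 1.30 against 1.69 for glycolysis and 1.46 for the respiratory chain.

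Of 16 immediate early and heat shock genes, 15 were tested and 4 were called, beside 2.30% of all genes tested. Fos was at 1.31, 1.05, 1.46, 4.16, 10.6 and 3.43 CPM (adjusted p = 8.51e-08), Jun was highest in WT 4 at 6.79 CPM (adjusted p = 0.00144), and the inducible chaperone genes Hspa1b and Hspa1a were highest in WT 4 at 8.36 and 2.10 CPM (adjusted p = 1.32e-15 and 0.000113). The abundant chaperone genes Hsp90ab1, Hspa8 and Hsp90aa1 were also highest in WT 4, at 3969, 2535 and 1313 CPM, and did not pass. Without WT 4 the Hspa1a and Hspa1b calls were lost, without WT 5 that of Fos and without WT 1 that of Jun.

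In mitosis, 2 of 28 genes were called, beside 2.30% of all genes tested. Cdc20 was at 165, 142, 171, 281, 301 and 247 CPM (adjusted p = 0.0229) and Ube2c, the ubiquitin-conjugating enzyme of the same complex, at 112, 81.5, 106, 162, 165 and 149 CPM (adjusted p = 0.0473). Both were higher in WT 4, WT 5 and WT 6 than in the other libraries, which is the opposite order to Mki67. Both calls were lost when any 1 library other than WT 4 was left out, and the Cdc20 call under 11 of 20 alternatives, with adjusted p from 0.00608 to 1.

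**Figure D5:**
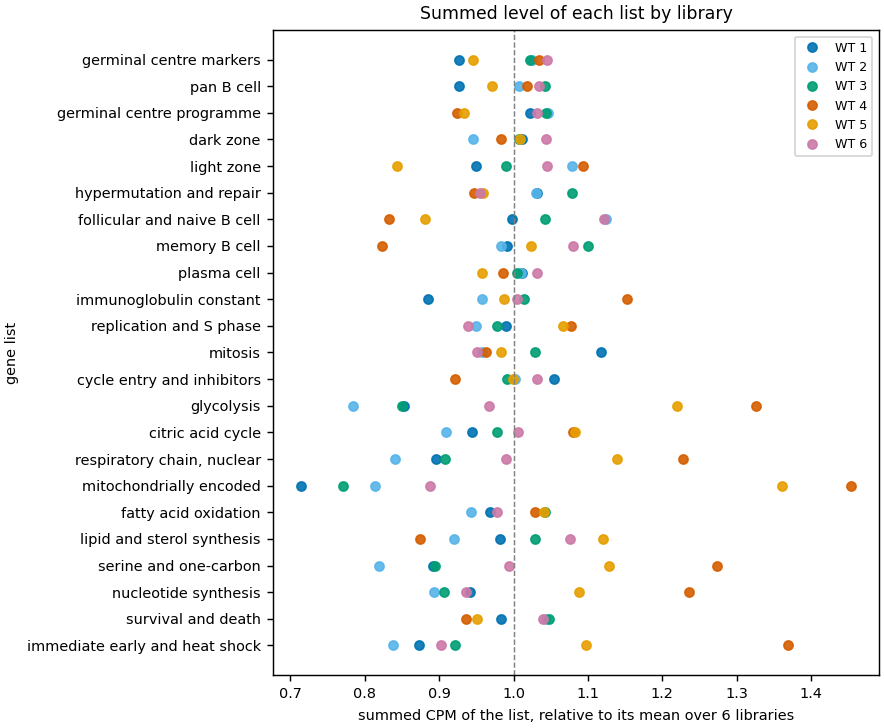
Summed CPM of each list in each library, divided by the mean over the 6 libraries. WT 4 and WT 5 lie to the right for mitochondrially encoded, glycolysis, respiratory chain and heat shock lists, and the points of the pan B cell, dark zone and plasma cell lists stay close to 1.

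Measures of library composition moved with these lists. Mitochondrially encoded genes took 3.90%, 4.47%, 4.03%, 7.34%, 7.15% and 4.72% of counts in WT 1 to WT 6, and ribosomal protein genes 4.89%, 4.64%, 4.80%, 6.95%, 6.07% and 5.36%. Detected genes were divided into 3 classes by exon length. The 4011 shortest genes, of at most 2936 bases, had a median log2 deviation of 0.139 in WT 4 and 0.102 in WT 5 and of -0.074 to -0.085 in WT 1, WT 2 and WT 3. The 4010 longest genes, of at least 5553 bases, had -0.127 in WT 4 and -0.093 in WT 5 and 0.069 to 0.089 in WT 1, WT 2 and WT 3. Of long transcripts named after their values were seen, the histone methyltransferase gene Kmt2c was low in WT 4 and WT 5, at 242, 238, 251, 112, 125 and 173 CPM in WT 1 to WT 6 (adjusted p = 0.00135). The nuclear RNA Malat1 was low in WT 4 alone, at 470, 648, 407, 163, 399 and 390 CPM (adjusted p = 0.000848). The Malat1 call was lost without WT 4 and within the 3 libraries of knockout cohort titles. That of Kmt2c stood whichever library was left out. It was lost within the 3 libraries of either title cohort, within the 3 libraries at 0 counts for Alb and with 1 mean for each title cohort. The part of transcript length and library composition in the list differences was not tested.

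Single genes outside these lists varied widely too. Slc15a2, a peptide transporter gene, was at 34.5, 22.6, 2.78, 4.06, 98.1 and 23.3 CPM (adjusted p = 4.84e-54), and Srp54b, one of several near-identical copies of a signal recognition particle gene, at 1.22, 2.84, 18.5, 12.1, 6.61 and 3.03 CPM (adjusted p = 1.82e-13). Neither followed the title cohorts or the sex-linked genes. Eps8l1 was at 5.08 CPM in WT 1 and at 21.7 to 45.2 CPM in the others, and Rbm44 was highest in WT 2 at 16.8 CPM. The Eps8l1 call was lost without WT 1 and that of Rbm44 without WT 2. Colca2 was at 20.4, 18.3, 14.5, 2.33, 5.31 and 7.84 CPM and Scand1 at 10.0, 12.4, 12.2, 34.4, 29.3 and 24.6 CPM, so both separated the knockout cohort titles from the knock-in cohort titles.

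The noncoding RNA genes Rn7sk and Rpph1, which encode a regulator of transcription elongation and the RNA of RNase P, were highest in WT 4, at 35.2 and 22.3 CPM. Lars2, whose locus overlaps ribosomal RNA-like sequence in mouse, was at 366, 499, 698, 1468, 348 and 337 CPM, an order near that of Gm42418 and AY036118. The mitochondrial gene mt-Nd4l was at 108 CPM in WT 4 and at 0.618 to 2.10 CPM in the other libraries. Nuclear near-copies of mitochondrial genes can take or divide reads, so these values are uncertain as levels of the transcript. The genes mt-Nd4l, Rpph1 and Lars2 were not called without WT 4. Rasgrf2 and mt-Nd3, the last of the 20, did not pass the test (adjusted p = 0.0756 and 0.0694).

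Transcripts of genes that hepatocytes express were present in 3 libraries and almost absent from the other 3. The 16 genes described here were chosen after their values were seen. Alb, the serum albumin gene (chromosome 5, 90460897 to 90476602, plus strand, GRCm38), was at 6.32, 7.90 and 8.85 CPM in WT 1, WT 5 and WT 6 and had 0 counts in WT 2, WT 3 and WT 4. Serpina3k, a serum protease inhibitor, was at 3.06, 2.84 and 3.71 CPM in the same 3 libraries, and the fibrinogen gene Fgb at 1.51, 1.18 and 2.28 CPM. All 16 genes, which include Apoa1, Ttr, Ahsg, Fabp1, Cyp2e1 and Tat, had counts in WT 1, WT 5 and WT 6, with sums of 1233, 1515 and 1686 counts. The sums in WT 2, WT 3 and WT 4 were 6, 2 and 0 counts. The split crosses the title cohorts and the sex-linked genes. Of the 10 libraries of the other genotypes, 5 had a sum of 13.6 to 26.5 CPM and 5 of at most 0.242 CPM. All 16 genes were called more variable, but they had been chosen for this pattern. What the libraries with these transcripts share is not given in the labels and was not tested.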

How the data were processed

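RNA was measured in germinal centre B cells sorted from spleen, with TruSeq RNA v2 libraries, per the labels' protocols. The authors deposited whole-number read counts per gene symbol, and CASAVA 1.8, HISAT2, featureCounts and mm10 are named in the submitters' processing notes. The strand setting, like the annotation, is not given in the sources used here, so overlapping and antisense genes cannot be told apart. Of counts from 1 to 50, 81.7% were even numbers, as when both reads of a pair are counted, so counts exceed molecules and counting limits here are too narrow. Genotype was read from the cell line tag, where the submitters had put it. Library numbers follow accession order and only name a library. No 2 libraries agreed within sampling noise (chi-square over genes divided by its degrees of freedom, 39.8 to 199). None was therefore counted as another library sequenced again. Libraries made separately from the same mouse can also differ by more than this noise, so the check does not show whether libraries share a mouse.

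Counts of the 6 wild type libraries were scaled by TMM (edgeR 4.0.16, R 4.3.3). TPM used union exon lengths of GENCODE M21, which held 48069 symbols. The SD of log2 CPM used a prior count of 2. Genes were kept by filterByExpr with the title cohorts as groups, which needs counts in 3 libraries, and tested against the trended dispersion with edgeR's goodness-of-fit. The test was checked on counts simulated from the trended negative binomial that it assumes, with a raised dispersion in some genes. Such counts cannot show how the test behaves where libraries differ in composition or by title cohort. Promoters were RefSeq's on GRCm38.p6, first entry per symbol. Members and lists (31 lists, 509 of 510 entries in the table) were chosen with earlier results of these data known. Named genes were the 5 markers, the 15 highest by CPM, the 20 of highest SD at a mean of at least 5 CPM (without immunoglobulin segments, predicted genes and pseudogenes), and in each list the 3 highest by TPM, up to 3 under 1 CPM and the most variable. Not every gene that the rule gives is printed, and some items are not reported here. Alternatives changed scaling, genes in the total, libraries, filters, thresholds, ranks and dispersion (DESeq2 1.42.0).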

Additional observations from a re-analysis of the deposited data

Results flagged for a closer look

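Of 123 named genes with a mean of at least 1 CPM, 8 had 1 library separated from the other 5 by a gap past Dixon's critical value, which chance gives in about 1 of 20 groups. That rate does not apply to genes named for high variation, which 7 of the 8 were, and Mcm6 was the other one. In WT 4, mt-Nd4l was high at 108 CPM (next 2.10), Rpph1 at 22.3 CPM (next 7.16) and Lars2 at 1468 CPM (next 698). Also in WT 4, Bank1 was low at 138 CPM (next 216) and Cdkn1b, an inhibitor of cyclin-dependent kinases, at 14.9 CPM (next 23.2). In WT 5, Slc15a2 was high at 98.1 CPM (next 34.5) and Cxcr3 at 28.3 CPM (next 8.87). In WT 6, Mcm6 was low at 656 CPM (next 725), a gap of small size.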

How the results depend on the processing

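No paired analysis was possible because the replicate numbers follow accession order and no groups were compared. Across alternatives the number of detected genes, the detected list members (421) and the shares of mitochondrial and ribosomal protein genes held their main values within the limits set. Leaving out mitochondrial genes moved the immunoglobulin share to 1.20%. Ranking by TPM kept 57 of the 100 highest genes. The median SD of log2 CPM was 0.132 in the 3 libraries of knockout cohort titles and 0.201 in the 3 of knock-in cohort titles, and the median coefficient of variation was 0.173. The number of genes more variable than the trend fell to 75 and 91 in those subsets, 100 in the 3 libraries at 0 counts for Alb, 225 with 1 mean for each title cohort and 221 at an adjusted p under 0.01. Counting libraries tied at 0 as lowest, WT 4 was the highest or lowest library for 230 of the 358 calls. Without its ties this was 183. Among all detected genes, WT 4 was highest for 26.0% and lowest for 27.4%, so an end position was common for it beyond the calls. With ties, WT 4 was at an end for 74 of 91 calls in the knock-in titles. In the other settings just named this was 88 of 100, 148 of 225 and 139 of 221. Leaving out 1 library gave 272 to 283 calls, 182 to 219 calls with WT 4 at an end, 12274 to 12309 detected genes, 419 to 421 list members, 98 to 99 of the 100 highest genes, shares of 1.12% to 1.15%, 4.85% to 5.54% and 5.15% to 5.61% for immunoglobulin, mitochondrial and ribosomal protein genes, and a median SD of 0.216 (without WT 4) to 0.263. DESeq2's dispersion trend called 496 genes, 334 of them among the 358. The other filters and leaving out the sex-linked and liver genes called 304 to 382. The filter with all 6 libraries as 1 group, the 3 libraries at 0 for Alb and the lists left out were chosen after seeing the data. For single named genes, 2313 of 2326 mean levels moved by less than 1 SD, and of 1379 variation results (71 genes) 1188 kept their side of the threshold, 181 lost a call and 10 gained one. Depth limits little here, since 1 CPM is 39.5 counts in WT 4 and 96.3 in WT 2.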
